A study of Danio rerio with 6 samples.

Results

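The genes described are 44 enzymes, isozymes and regulators of glycolysis, gluconeogenesis and lactate metabolism, with the liver glucose transporter. They were chosen by symbol from the 30954 named genes of a count table of zebrafish liver, and all 44 symbols are in it. The table holds 6 libraries of total RNA from liver. In 3 of them the fish were scd mutants made by CRISPR-Cas9 knockout, and in 3 they were wild type (WT). Both groups were kept at the same water temperature, while the sources used here do not give the allele, age, sex, clutch, feeding state or number of fish per library. Since no label says that the libraries come from separate fish, the p-values reflect only the scatter among these libraries, part of which may be technical. The contrast is mutant over WT, and scd encodes a stearoyl-CoA desaturase, an enzyme that puts a double bond into saturated fatty acids.

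Glycolysis splits glucose into pyruvate, and gluconeogenesis runs the other way to release glucose. Most steps are shared and reversible. The directions part at the steps that enter or leave free glucose, fructose bisphosphate and phosphoenolpyruvate, where separate enzymes work against each other. The liver is the main organ of gluconeogenesis in vertebrates, and its genes for glucokinase, glucose 6-phosphatase and phosphoenolpyruvate carboxykinase are known to respond to feeding, insulin and glucagon.

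None of these genes passed edgeR's test over the 6 libraries, and the 3 with the smallest p-values were a glucose 6-phosphatase, a pyruvate carboxylase and a phosphofructokinase gene, each with a lower mean in mutants. Of the 44 genes, 34 passed the filter on low counts, and 0 were called in either direction (edgeR quasi-likelihood test, adjusted p under 0.05 over all genes), where 0.241% of the 12889 genes tested were called. DESeq2's Wald test called 1, g6pca.2, where it called 8.42% of all genes, and limma-voom called 0, where it called 0.217%. At an unadjusted p under 0.05, edgeR put 3 of the 34 lower in mutants (g6pca.2, pcxb and pfklb) and 0 higher. Those 3 are 8.82%, near the 8.29% of all genes lower at that threshold, and 10.8% of all genes were higher. The median log2 fold change, mutant over WT, was -0.0037 over the 34 genes and 0.039 over all genes. Of the 34 values, 17 were positive and 17 negative. The levels of 2 genes, g6pca.2 and pcxb, lay wholly lower in mutants without overlap and those of 0 wholly higher, or 5.88% lower, where 12.8% of all tested genes lay wholly lower and 15.1% wholly higher.

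The libraries differed in more than genotype. Named counts per library were 22840652 to 25852954 in mutants and 22525340 to 25329187 in WT. The levels below are counts-per-million (CPM) values after scaling each library by its trimmed mean of M-values (TMM) factor, so a level compares libraries for 1 gene and not genes with each other. Vitellogenin, the egg yolk precursor made by the liver of egg-laying females, took 57.3%, 57.3% and 0.0434% of counts in mutant replicates 1 to 3, against 44.1% to 51.0% in WT. The TMM factor of mutant replicate 3 was 2.967, against 0.6316 to 1.065 elsewhere. The summed level of oocyte and gonad markers was 376, 2.39 and 0.913 CPM in mutant replicates 1 to 3, against 224, 263 and 4.89 CPM in WT replicates 1 to 3. That of erythrocyte markers reached 2365 CPM in mutant replicate 3, with 219 to 382 CPM in the other libraries. Exocrine pancreas markers summed to 672.5, 490.1 and 740.2 CPM in mutant replicates 1 to 3, against 210.5, 2801 and 2469 CPM in WT. Endocrine pancreas markers summed to 1.84, 9.51 and 9.67 CPM in mutants and 1.49, 33.5 and 31.0 CPM in WT. All 15 hepatocyte markers were detected. They summed to 103700, 46600 and 58240 CPM in mutant replicates 1 to 3, against 75300, 71820 and 83010 CPM in WT. Mutant replicate 1 was thus above all WT libraries, and mutant replicates 2 and 3 were below them. In bulk tissue, fewer cells of a type and less RNA per cell cannot be told apart. The scd transcript itself stood at 693, 111 and 56.7 CPM in mutants and 30.3, 18.1 and 431 CPM in WT, so its level does not check the labels.

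Together the 44 genes took 0.786%, 0.591% and 1.733% of named counts in mutant replicates 1 to 3 and 0.976% to 1.046% in WT. Leaving vitellogenin out of the total, these shares were 1.84%, 1.382% and 1.734% in mutants and 1.841%, 2.134% and 1.943% in WT. On that denominator mutant replicate 1 was level with WT replicate 1, and the other mutants lay below all WT libraries. This order leans on g6pca.2, so it does not describe the 44 genes one by one. That gene held 44712, 63388 and 95667 of the 231759, 264864 and 242141 summed counts in WT replicates 1 to 3. In mutants it held 16937, 13424 and 48787 of 203306, 134874 and 412210. Shares without g6pca.2 are not given.

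Glucose 6-phosphatase, the enzyme that frees glucose from glucose 6-phosphate in the last step of gluconeogenesis, had the largest log2 fold change of the 34 genes in either direction, in g6pca.2. The more read of its 2 genes among the 44, it stood at 1038, 552 and 696 CPM in mutant replicates 1 to 3 and at 2147, 3321 and 5377 CPM in WT replicates 1 to 3. Every mutant library was below every WT library, and the nearest pair, mutant replicate 1 and WT replicate 1, lay about a factor of 2 apart. Mutants averaged 762 ± 249 CPM and WT 3615 ± 1635 CPM (SD, n = 3 each). On the log2 scale this was a change of -2.25 with standard error (SE) 0.58 and a 95% interval from -3.60 to -0.89. Its adjusted p was 0.123 by edgeR and 6.11e-05 by DESeq2. Under the other alternatives the adjusted p reached 0.337, and the log2 fold change lay between -2.56 and -1.34 over all 18 of them, and only DESeq2 called it.

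The paralogue g6pca.1 did not split by genotype in the same way. It read 245, 28.9 and 27.9 CPM in mutants and 180, 417 and 297 CPM in WT. Mutant replicates 2 and 3 were several-fold below all WT libraries, while mutant replicate 1 lay inside the WT range. Its log2 fold change was -1.57 ± 0.91 (SE, edgeR adjusted p = 0.390), and -3.41 without mutant replicate 1 (adjusted p = 0.0532, and 0.0532 to 0.657 over 18 alternatives). RefSeq's GRCz12tu annotation, which is not the build of the counts, places the pair on 1 chromosome with 3 coding genes between them, and how reads that fit both were counted is not stated. Summed to 1 gene, an alternative chosen after the data were seen, they read 1282, 581 and 724 CPM in mutants against 2327, 3738 and 5675 CPM in WT (log2 fold change -2.18 ± 0.60, edgeR adjusted p = 0.135).

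**Figure D1:**
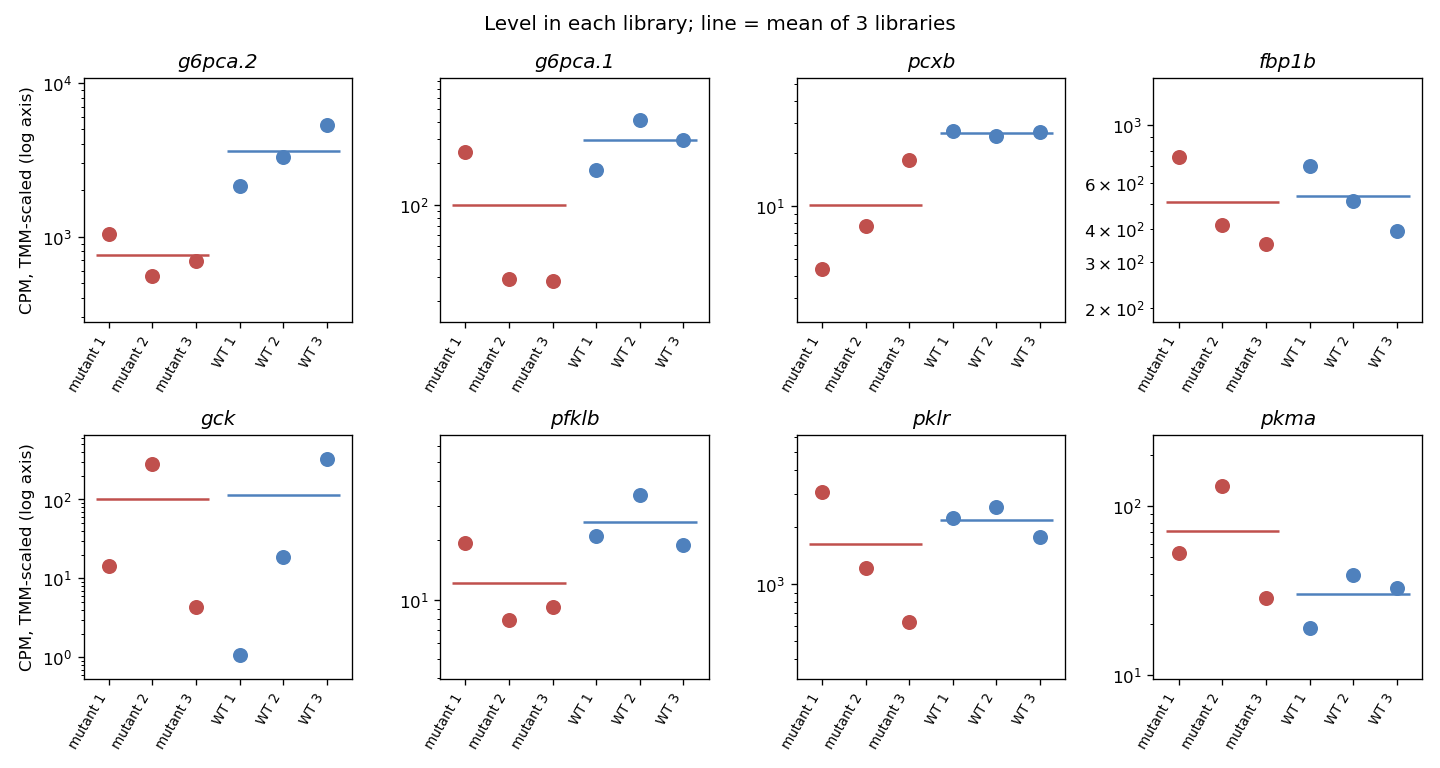
Levels of 8 genes in each library, in TMM-scaled CPM on a log axis, with mutants in red on the left, WT in blue on the right and lines for group means. For g6pca.2 and pcxb the mutant points all lie below the WT points, whereas gck spreads from 1.06 to 324 CPM within WT alone.

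All 6 tested genes of the gluconeogenic enzymes had negative log2 fold changes under TMM, with a median of -0.97, but with total counts 4 of the 6 were positive (median 0.17), where the median of all genes itself moved to 0.98. The gene fbp1b also turned positive in 5 other fits. Pyruvate carboxylase, which makes oxaloacetate from pyruvate, is encoded by pcxb among others. Its level was 4.35, 7.74 and 18.3 CPM in mutants and 26.8, 25.3 and 26.6 CPM in WT. The WT libraries were nearly equal, with an SD of 0.836 CPM, and the mutants spread below them over 4.21-fold. The log2 fold change was -1.36 ± 0.50 (SE, 95% interval -2.53 to -0.20, edgeR adjusted p = 0.211). It was 0.054 with total counts and -2.12 without mutant replicate 3 (adjusted p = 0.0776), the library almost without vitellogenin counts. With the oocyte markers as a covariate in those 5 libraries it was -2.25, and there pcxb fell by the test, which called 0.806% of all genes (edgeR adjusted p = 0.0330, and 0.0330 to 0.969 over 18 alternatives).

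The paralogue pcxa, which is not among the 44 and was chosen after its values were seen, had 274, 132 and 127 CPM in mutants and 232, 247 and 239 CPM in WT (log2 fold change -0.43, edgeR adjusted p = 0.588). The ratio of pcxb to pcxa counts was 0.0159, 0.0584 and 0.1445 in mutants and 0.1156, 0.1024 and 0.1112 in WT. Mutant replicate 3 was thus above WT in this ratio, and mutant replicates 1 and 2 below it.

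Phosphoenolpyruvate carboxykinase turns oxaloacetate into phosphoenolpyruvate, in mitochondria for the product of pck2 and in the cytosol for that of pck1. The level of pck2 was 373, 236 and 193 CPM in mutants and 426, 325 and 318 CPM in WT. The ranges overlapped through mutant replicate 1 (log2 fold change -0.41 ± 0.39 SE, edgeR adjusted p = 0.592). The cytosolic gene pck1, which is not one of the 44, read 1588, 634 and 244 CPM in mutants and 1377, 4351 and 8806 CPM in WT (-2.56 ± 0.95, edgeR adjusted p = 0.214). Its WT levels were far apart, and mutant replicate 1 lay above WT replicate 1. Within each library, pck1 counts were 4.255, 2.684 and 1.261 times those of pck2 in mutants and 3.229, 13.39 and 27.69 times in WT.

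Fructose bisphosphatase opposes phosphofructokinase. Its most read gene, fbp1b, stood at 758, 415 and 352 CPM in mutants and 697, 514 and 393 CPM in WT. The groups overlapped. Means were 508 ± 218 CPM in mutants and 535 ± 153 CPM in WT (SD, n = 3 each), and the log2 fold change of -0.074 had a 95% interval from -1.15 to 1.01 (edgeR adjusted p = 0.945). The paralogue fbp1a was between 0.700 and 3.48 CPM in mutants and between 2.096 and 4.22 CPM in WT. The muscle-type gene fbp2, next to fbp1a in the GRCz12tu annotation, had 4 counts in the mutant libraries and 0 in the WT ones.

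The entry of glucose into the liver cell comes next. The transporter gene slc2a2 encodes GLUT2, through which glucose crosses the hepatocyte membrane in both directions. It read 189, 117 and 72.7 CPM in mutants and 179, 212 and 169 CPM in WT. Mutant replicates 2 and 3 were below all WT libraries and mutant replicate 1 was within them (log2 fold change -0.57 ± 0.41 SE, edgeR adjusted p = 0.485). Without mutant replicate 1 the change was -0.997 (adjusted p = 0.154, and 0.154 to 0.973 over 18 alternatives).

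Glucokinase, the hexokinase of high capacity that liver uses to trap glucose, varied more between libraries of 1 genotype than any other of the 34 genes that had counts in each library. The gene gck stood at 14.2, 285 and 4.39 CPM in mutant replicates 1 to 3 and at 1.06, 18.6 and 324 CPM in WT replicates 1 to 3. The highest library was 64.9 times the lowest among mutants and 306.7 times the lowest in WT. Mutant replicate 2 and WT replicate 3 were high and the other 4 low, so the groups overlapped almost fully. The log2 fold change of -0.18 had an SE of 2.13 and a 95% interval from -5.42 to 5.06 (edgeR adjusted p = 0.971), so neither a large rise nor a large drop is outside it. Without WT replicate 3 the value was 3.35 and without mutant replicate 2 it was -3.66, neither called (adjusted p = 0.532 and 0.526). DESeq2 gave gck no p-value.

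The low-capacity hexokinases hk1 and hk2 were steadier, at 1.52 to 4.76 CPM in mutants and 1.15 to 4.89 CPM in WT across both genes. The counts of gck over those of hk1 and hk2 together came to 2.795, 86.60 and 0.559 in mutants and to 0.2444, 6.017 and 43.01 in WT. Set against the opposing glucose 6-phosphatase genes, gck counts were 0.01109, 0.4904 and 0.00607 of theirs in mutants and 0.000454, 0.004976 and 0.05709 in WT. Mutant replicate 2 had the highest ratio and WT replicate 1 the lowest, and the groups overlapped.

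Among the steps from glucose 6-phosphate to triose phosphates, the leading gene had a negative log2 fold change at phosphofructokinase and a positive one at the other two. This enzyme commits sugar to glycolysis. Its liver-type gene pfklb stood at 19.4, 7.90 and 9.16 CPM in mutants and at 21.0, 34.1 and 18.9 CPM in WT. Mutant replicate 1 lay between the WT libraries, and the other mutants were below them. The log2 fold change was -1.02 ± 0.42 (SE, 95% interval -2.02 to -0.030, edgeR adjusted p = 0.251). Over the alternatives it ran from -1.56 without mutant replicate 1 (adjusted p = 0.0836) to -0.30 with total counts (adjusted p = 0.816). The platelet-type and other liver-type genes pfkpa and pfkla were at 0.306 to 3.32 CPM in mutants and 0.450 to 2.81 CPM in WT.

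Glucose phosphate isomerase and aldolase overlapped between the groups. The isomerase gene gpia read 286, 162 and 172 CPM in mutants and 166, 155 and 167 CPM in WT. Mutant replicate 1 stood above the other 5 libraries, which lay between 155 and 172 CPM (log2 fold change 0.34 ± 0.35 SE, edgeR adjusted p = 0.623). The aldolase gene aldoaa was at 42.7, 14.0 and 38.1 CPM in mutants and 19.4, 13.1 and 34.3 CPM in WT (0.50 ± 0.51, adjusted p = 0.617). The related aldocb lay between 2.14 and 5.45 CPM in mutants and between 1.87 and 5.06 CPM in WT.

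The reversible steps from triose phosphate to phosphoenolpyruvate serve both directions. Triosephosphate isomerase was represented by tpi1b, at 238, 127 and 227 CPM in mutants and 215, 226 and 149 CPM in WT. Phosphoglycerate kinase pgk1 read 257, 146 and 240 CPM in mutants and 195, 241 and 203 CPM in WT. The mutase pgam1a read 176, 140 and 122 CPM in mutants and 189, 149 and 155 CPM in WT. Each of these had a 95% interval that excludes a change of 2-fold either way: -0.89 to 0.90 for tpi1b, -0.82 to 0.84 for pgk1 and -0.91 to 0.56 for pgam1a. Of the 34 genes tested, 4 had such an interval, and the fourth was pfkfb1. These intervals are those under TMM. With total counts the log2 fold changes of tpi1b, pgk1 and pgam1a were 1.01, 1.02 and 0.64, where the median of all genes also rose.

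The dehydrogenase gapdh, the gene of the 44 with the most counts, stood at 4086, 1199.9 and 1844 CPM in mutants and 3241, 4152 and 3173 CPM in WT. Mutant replicates 2 and 3 were below the WT libraries and mutant replicate 1 among them (log2 fold change -0.57 ± 0.61 SE, edgeR adjusted p = 0.640). This gene is often used as a reference for scaling, and here its levels spread 3.46-fold over the 6 libraries. Its relative gapdhs, named after the sperm form of mammals, read 22.1, 13.3 and 32.7 CPM in mutants and 10.9, 12.3 and 21.1 CPM in WT (0.62 ± 0.41, adjusted p = 0.439). The enolase gene eno3, named after the muscle form of mammals, read 732, 375 and 469 CPM in mutants and 613, 746 and 460 CPM in WT (-0.21 ± 0.43, adjusted p = 0.827). The less read paralogues pgam1b and eno1a lay between 5.23 and 21.2 CPM in mutants and between 4.71 and 17.2 CPM in WT, with groups that overlapped. The 22 skeletal muscle markers that had any count, of 27 in the table, summed to 0.613 to 2.45 CPM in mutants and 1.06 to 1.12 CPM in WT.

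A pair of low genes at these steps are also given, and both were chosen after their values were seen. The mutase pgam2, the muscle form in mammals, read 10.5, 8.23 and 0.385 CPM in mutants and 13.8, 14.7 and 8.99 CPM in WT. Mutant replicate 3 alone was low, with 27 counts, and without it the log2 fold change was -0.43 in place of -0.98. The isomerase tpi1a had 17, 0 and 1 counts in mutant replicates 1 to 3 and 48, 29 and 0 counts in WT replicates 1 to 3. The libraries with tpi1a counts above 1 were those whose oocyte and gonad markers summed to 224 CPM or more, and the part of such transcripts in this gene was not tested. Its log2 fold change of -2.06 (edgeR adjusted p = 0.578) had a 95% interval from -6.56 to 2.44.

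**Figure D2:**
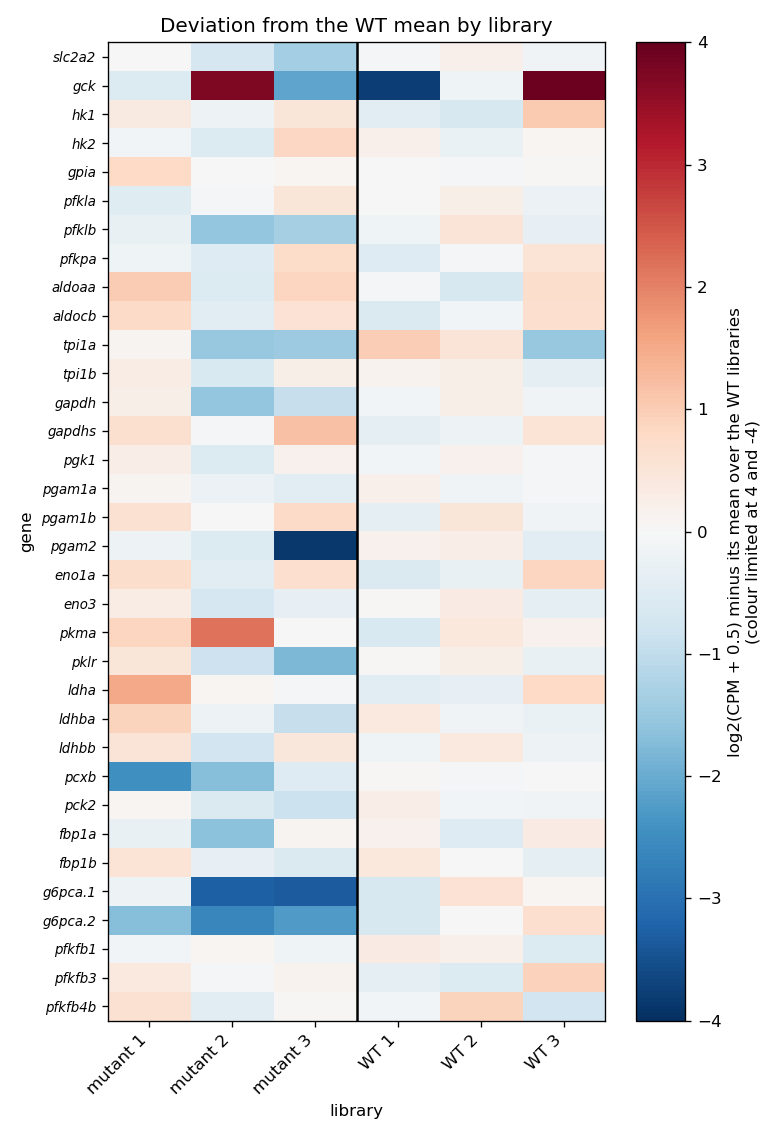
Deviation of log2(CPM + 0.5) from the mean over the WT libraries for each of the 34 tested genes (rows) in each library (columns, mutants left of the line, WT right), red for higher and blue for lower. The rows of g6pca.2 and pcxb are blue in all 3 mutants, that of gck changes colour within each genotype, and that of pgam2 is blue in mutant replicate 3.

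Pyruvate kinase closes glycolysis. The liver pyruvate kinase gene pklr read 3060, 1215 and 626 CPM in mutants and 2236, 2567 and 1771 CPM in WT. Mutant replicate 1 was the highest of all 6 libraries and mutant replicate 3 the lowest (log2 fold change -0.42 ± 0.66 SE, edgeR adjusted p = 0.761). The gene pkma encodes the M-type kinase of muscle and many other tissues. It was at 52.9, 131 and 28.7 CPM in mutants and 19.0, 39.4 and 32.7 CPM in WT, and it had the largest positive log2 fold change of the 34 genes (1.22 ± 0.58, edgeR adjusted p = 0.300). That value rested on mutant replicate 2, since without it the change was 0.41. The ratio of pkma to pklr counts was 0.01728, 0.1081 and 0.04582 in mutants and 0.008481, 0.01535 and 0.01847 in WT, so mutant replicates 2 and 3 exceeded all WT libraries and mutant replicate 1 did not.

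Lactate dehydrogenase links pyruvate to lactate, a main substrate of gluconeogenesis in liver. The most read of its genes, ldhbb, stood at 619, 254 and 587 CPM in mutants and at 385, 561 and 373 CPM in WT (log2 fold change 0.15 ± 0.47 SE, edgeR adjusted p = 0.888). The paralogue ldhba read 131, 61.6 and 36.5 CPM in mutants and 91.9, 64.1 and 58.7 CPM in WT. The gene ldha, the A form, read 35.8, 13.0 and 11.9 CPM in mutants and 8.79, 9.74 and 21.8 CPM in WT (0.59 ± 0.55, adjusted p = 0.579). In each of these genes the groups overlapped.

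The bifunctional PFKFB enzymes set the level of fructose 2,6-bisphosphate, which activates phosphofructokinase and inhibits fructose bisphosphatase. The 3 genes of this kind among the 44 had log2 fold changes between -0.12 and 0.014. The most read, pfkfb4b, was at 11.9, 5.60 and 7.94 CPM in mutants and 7.01, 14.4 and 4.27 CPM in WT (-0.014 ± 0.49 SE, edgeR adjusted p = 0.990). The liver gene pfkfb1 read 5.94, 6.95 and 5.72 CPM in mutants and 8.31, 7.65 and 4.33 CPM in WT, with a 95% interval from -0.87 to 0.63. The inducible gene pfkfb3 lay between 1.03 and 1.59 CPM in mutants and between 0.576 and 2.53 CPM in WT. Outside the 44, pfkfb4a lay wholly higher in mutants, with a log2 fold change of 1.17 ± 0.46 (SE, edgeR adjusted p = 0.229). The value of pfkfb2b, chosen after its values were seen, was 1.52 ± 0.78 (SE, edgeR adjusted p = 0.334), and its groups overlapped. The related pfkfb2a did not pass the filter.

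**Figure D3:**
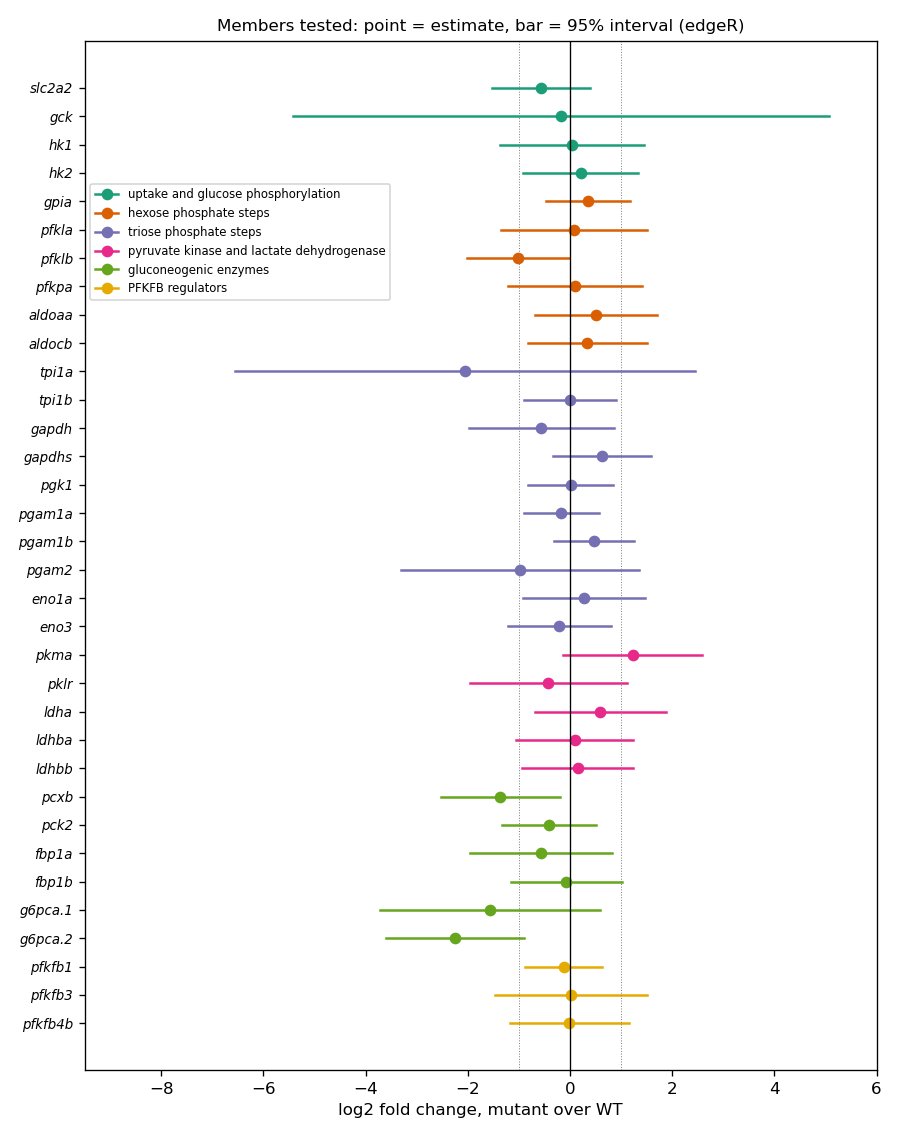
Log2 fold change, mutant over WT, of the 34 tested genes from edgeR, with 95% intervals as bars and colours for the role in the pathway; dotted lines mark 2-fold changes. The intervals of g6pca.2, pcxb and pfklb lie below 0, and those of gck and tpi1a are the widest.

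The other 10 of the 44 genes did not pass the filter. Of these, pfkmb and aldoca had 0 counts in all libraries, which allows up to 0.0428 to 0.184 CPM per library at a floor of 3 counts, for counting error only. The isomerase gene gpib was at 0.123 to 0.368 CPM in mutants and 0.393 to 0.629 CPM in WT, without overlap but untested. The kinases pfkma and pfkpb were at 0.0412 to 0.827 CPM in mutants and 0.112 to 0.681 CPM in WT. The remaining genes, aldoab, eno1b, eno2, fbp2 and pkmb, had 0 to 31 counts summed over a group. The neuronal enolase gene eno2, which neighbours tpi1a in the GRCz12tu annotation, had 7 counts in mutants and 0 in WT.

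Within most steps 1 of the 44 genes took nearly all the counts of the 44 in each library, as counts and not per length. The share was at least 99.6% for gpia, 98.3% for gapdh and 97.1% for eno3 in all 6 libraries. For pklr it was 98.3%, 90.3% and 95.6% in mutants and 98.2% to 99.2% in WT. For g6pca.2 it was 80.9%, 95.02% and 96.2% in mutants and 92.2%, 88.9% and 94.8% in WT. For glucose phosphorylation, gck took 73.7%, 98.9% and 35.9% of the counts of gck, hk1 and hk2 in mutants and 19.6%, 85.8% and 97.7% in WT. With the hexokinase-domain gene hkdc1, which is not among the 44 and was chosen after its values were seen, counted in, the shares of gck were 28.3%, 91.5% and 15.3% in mutants and 4.47%, 21.9% and 87.8% in WT. That gene had more counts than gck in 4 of the 6 libraries.

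The genes were not spread evenly over the libraries. Among the 34 genes, mutant replicate 1 was the highest library for 10, and the others for 1 to 7. Mutant replicate 2 was the lowest for 10, mutant replicate 3 and WT replicate 1 for 8 each, and the rest for 2 to 4. A tie at 0 tpi1a counts with WT replicate 3 was given to mutant replicate 2. The same counts over all tested genes were not made. The median deviation from the WT mean, on the log2 scale, was 0.29, -0.52 and -0.032 in mutant replicates 1 to 3, and it was between -0.098 and -0.019 in WT. The same median over all tested genes lay between -0.012 and 0.035 in every library. Without mutant replicate 1, 8 of the 36 then tested were lower at an unadjusted p under 0.05, where 13.2% of all genes were, and 0 were called, where edgeR called 0.55% of all genes. They were g6pca.1, g6pca.2, pfklb, tpi1a, gapdh, pklr, slc2a2 and pcxb. This fit was singled out after the values were seen. Leaving out the mutant library that was highest for the most genes itself tilts the count towards lower, so the count is no separate evidence. The same count with other libraries left out is not given.

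**Figure D4:**
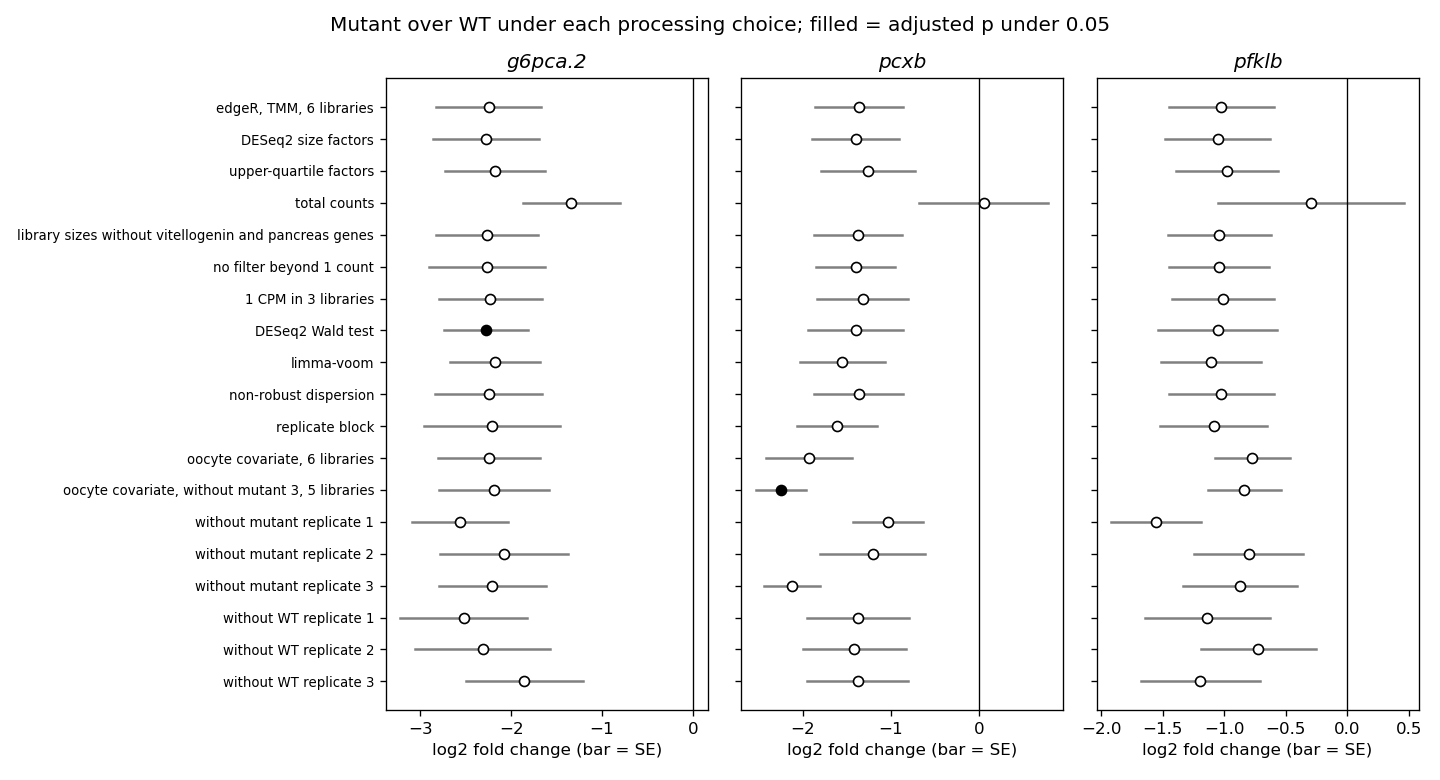
Log2 fold change, mutant over WT, of g6pca.2, pcxb and pfklb under each processing choice and with each library left out, with SE as bars and filled points for an adjusted p under 0.05. The estimates for g6pca.2 stay between -2.56 and -1.34, and total counts bring pcxb to 0.054 and pfklb to -0.30.

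Further genes of glucose metabolism were counted from lists chosen with earlier results of these data known. At an unadjusted p under 0.05, edgeR put 10.8% of all genes higher and 8.29% lower, and DESeq2's Wald test called 8.42% of all genes at an adjusted p under 0.05. Among 18 tested genes of glycolysis and gluconeogenesis outside the 44, edgeR called 0, with 3 (16.7%) higher and 1 (5.56%), pck1, lower at an unadjusted p under 0.05. DESeq2 called 1 of them, pck1 (adjusted p = 0.0173). With total counts edgeR called pck1 too (adjusted p = 0.00558), where it called 3.62% of all genes. Those higher included tigarb, a fructose bisphosphatase-type gene (log2 fold change 1.14), and the PFKFB gene pfkfb4a (1.17). Of 25 glycogen genes, edgeR called 0, and at the unadjusted threshold 3 (12%) were higher and 1 (4%) lower. The synthase gene gys1 stood at 15.3, 3.29 and 4.59 CPM in mutants and 1.87, 2.31 and 1.07 CPM in WT (2.13 ± 0.64 SE, edgeR adjusted p = 0.158), and it was the 1 gene of the list that DESeq2 called (adjusted p = 0.0261). The others higher were the phosphorylase kinase subunit phkg2 (0.75) and the mutase pgm2 (0.66). The other synthase gene of the list, gys2, overlapped between the groups and was chosen after its values were seen. It read 90.7, 88.2 and 78.2 CPM in mutants and 77.1, 100.3 and 61.2 CPM in WT (0.11 ± 0.30 SE, edgeR adjusted p = 0.871).

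Pyruvate dehydrogenase, which commits pyruvate to acetyl-CoA, is switched off by PDK kinases and on by PDP phosphatases. Of the 12 tested genes of the complex and its regulators, edgeR called 0, with 2 (16.7%) higher and 2 (16.7%) lower at the unadjusted threshold, and DESeq2 called 2 higher and 2 lower. The phosphatase genes were the higher ones. The level of pdp1 was 6.80, 16.4 and 4.29 CPM in mutants and 1.34, 1.26 and 0.731 CPM in WT (log2 fold change 3.03 ± 0.57 SE, adjusted p = 0.0759), and that of pdp2 was 1.65, 2.02 and 2.75 CPM in mutants and 0.480, 0.419 and 0.225 CPM in WT (2.501 ± 0.49, adjusted p = 0.0810). The lower ones were 2 of the kinase genes. The level of pdk2b was 50.2, 25.5 and 8.87 CPM in mutants and 63.2, 161.9 and 647 CPM in WT (-3.37 ± 1.03, adjusted p = 0.166), and pdk2a, named after its values were seen, had a log2 fold change of -2.03 (adjusted p = 0.180). None of these 4 overlapped between the groups, but they were picked by their p-values, so this adds no separate evidence. Of the 12 tested, 4 (33.3%, against 15.1% of all genes) lay wholly higher. Those wholly lower were 2 (16.7%, against 12.8%). The other kinase genes, also named after their values were seen, were mixed in direction. The level of pdk1 lay wholly higher in mutants (log2 fold change 0.90, edgeR adjusted p = 0.325). Groups overlapped for pdk3a (0.16) and pdk4 (-0.81), and pdk3b did not pass the filter. The 95% interval of pdk4 ran from -2.20 to 0.57, so a fall as large as that of pdk2a is not outside it.

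For fructose, galactose and glycerol entry, edgeR called 0 of 16 tested genes, with 4 (25%, against 10.8% of all genes) higher and 0 lower at the same threshold. DESeq2 called 1, galk1 (adjusted p = 0.00132). Those higher included the galactokinase gene galk1 (log2 fold change 1.93 ± 0.39 SE, adjusted p = 0.0831), the epimerase gene gale (0.85) and the glycerol phosphate dehydrogenase gene gpd1c (1.04). The fructokinase gene khk, chosen after its values were seen, lay wholly lower in mutants (-1.48, edgeR adjusted p = 0.292). It was the 1 gene of the list to do so (6.25%, against 12.8% of all genes), and 4 (25%, against 15.1%) lay wholly higher. Of 10 sugar and lactate transporters, edgeR called 0, with 2 lower (20%, against 8.29% of all genes) and 0 higher, and DESeq2 called those 2 (adjusted p = 0.00263 and 0.00979). These were slc16a1b, a monocarboxylate transporter gene at 33.0, 16.7 and 10.4 CPM in mutants and 87.6, 101.3 and 53.4 CPM in WT (-2.02 ± 0.49, adjusted p = 0.112), and slc2a5, a fructose transporter gene at 14.8, 10.2 and 7.00 CPM in mutants and 30.1, 34.6 and 21.4 CPM in WT (-1.43 ± 0.35, adjusted p = 0.115).

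Of 40 tested regulators, 11 stood lower at the unadjusted threshold (27.5%, against 8.29% of all genes) and 2 higher (5%, against 10.8%). DESeq2 called 1 higher and 9 lower, where it called 4.07% of all genes higher and 4.34% lower. By edgeR just 1 of the 40 was called, where 0.241% of all genes were. This was klf9, a transcription factor gene that responds to glucocorticoids. It fell to 20.0, 16.3 and 16.9 CPM in mutants, against 57.8, 84.5 and 80.9 CPM in WT (log2 fold change -2.07 ± 0.28 SE, edgeR adjusted p = 0.0471). Leaving out any 1 library ended that call, with adjusted p from 0.0547 to 0.191 and the log2 fold change between -2.24 and -1.98. The call also ended with total counts (-1.13, adjusted p = 0.320), the replicate block (adjusted p = 0.103) and the oocyte covariate over 6 libraries (0.0551) or over 5 (0.0539). The forkhead gene foxo3a (log2 fold change 2.60, edgeR adjusted p = 0.0759) and the insulin receptor substrate gene irs2b had the next smallest p-values. The level of irs2b was 0.613, 0.700 and 1.08 CPM in mutants and 4.85, 9.38 and 41.7 CPM in WT (-4.50 ± 0.89 SE, edgeR adjusted p = 0.0851). WT replicate 3 was far above the other WT libraries, and without it the value was -3.14 (adjusted p = 0.106, and 6.76e-07 to 0.27 over 18 alternatives). The related forkhead gene foxo1a, an activator of the glucose 6-phosphatase gene in mammals, read 46.4, 13.1 and 6.503 CPM in mutants and 103.7, 164.1 and 138.2 CPM in WT (-2.62 ± 0.72, adjusted p = 0.136) and was chosen after its values were seen. The list was assembled with earlier results of these data in view, so its direction is not independent evidence.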

How the data were processed

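The deposited table holds raw counts, 1 row per gene symbol, for 6 liver libraries, with no normalization. Trimmomatic 0.36, STAR 2.7, featureCounts 1.5.2 and build GRCz11 are listed per the submitters' processing notes. The sources used here do not state strand or multi-mapping settings, so counts of close paralogues are uncertain. The row with no gene name held 0.568% to 1.02% of counts and was left out. All 6 columns matched a sample by name, and 0 were left unused.

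Counts were tested with edgeR 4.0.16 in R 4.3.3 (filterByExpr, TMM, robust quasi-likelihood test, model of group only), with Benjamini-Hochberg adjustment over 12889 genes and calls under 0.05. SE was taken as the absolute log2 fold change over the root of F, and 95% intervals use the t quantile at the fit's degrees of freedom. DESeq2 1.42.0 and limma 3.58.1 were alternatives, with other scalings, filters and each library left out. Genes named are those at an unadjusted p under 0.05, the most counted gene of each step, up to 3 per pathway list, and those said to be chosen afterwards; fuller values of other members were also chosen after seeing them. The members and lists were chosen with earlier results of these data known. All 44 symbols matched RefSeq (GRCz12tu), used only for neighbours.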

Additional observations from a re-analysis of the deposited data

How the results depend on the processing

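The 34 tested genes held 0 calls under edgeR's other scalings and filters, limma-voom, the replicate block and each library left out. DESeq2's Wald test called 1 (g6pca.2), and the oocyte covariate without mutant replicate 3 called 1 (pcxb). Over all genes the count of calls, 31 as reported, was 467 with total counts, 211 with no filter beyond 1 count, 1085 with DESeq2's Wald test, 54 with the oocyte covariate over 6 libraries and 105 with it over the 5 without mutant replicate 3. Leaving out 1 library gave 2 (without mutant replicate 2) to 77 (without mutant replicate 1). After removal of each group's own mean, same-numbered libraries correlated at 0.187, -0.114 and 0.252. Differently numbered ones ran from -0.368 to 0.337. With 3 libraries a group, such values cannot settle whether the numbers mark pairs. No label states a pairing, so the samples were not treated as pairs. The replicate block called 2 genes, against 31 without it. With total counts 394 calls were higher and 73 lower, against 15 higher and 16 lower with TMM.

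The median log2 fold change of the 34 genes was 0.81 with total counts, where that of all genes was 0.98, and -0.18 to 0.17 with 1 library left out. With total counts, 11 of the 34 values changed sign, namely pcxb (0.054), slc2a2 (0.041), gck (0.40), gapdh (0.15), pgam1a (0.64), eno3 (0.63), pck2 (0.29), fbp1a (0.66), fbp1b (0.58), pfkfb1 (0.76) and pfkfb4b (0.86). The sign changes below are those of the genes with the most counts at their step. For tpi1b the value was -0.026 with DESeq2 size factors and DESeq2's Wald test, -0.027 with limma-voom, -0.0087 with library sizes without vitellogenin and pancreas genes, -0.020 with no filter, -0.021 with the replicate block and -0.052 with the oocyte covariate without mutant replicate 3. For pgk1 it was -0.022 with DESeq2 size factors and its Wald test, -0.0064 with library sizes without vitellogenin and pancreas genes, -0.015 with no filter, -0.032 with limma-voom, -0.024 with the replicate block and -0.079 with the oocyte covariate without mutant replicate 3. For pfkfb4b it was 0.034 with upper-quartile factors, 0.0045 with 1 CPM in 3 libraries, 0.070 with limma-voom, 0.12 with the replicate block, 0.42 with the oocyte covariate and 0.23 with it without mutant replicate 3. For gck it was 0.67 with limma-voom, 2.185 with the replicate block and 0.19 with the oocyte covariate without mutant replicate 3. With the covariate, eno3 was 0.021 and fbp1b 0.18 over 6 libraries, and ldhbb was -0.023 and fbp1b 0.20 over 5. With 1 library left out the ranges were -3.66 to 3.35 for gck, -0.18 to 0.23 for tpi1b, -0.17 to 0.21 for pgk1, -0.092 to 0.45 for ldhbb, -0.50 to 0.15 for fbp1b and -0.36 to 0.58 for pfkfb4b. The cause of these changes was not tested.

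There were 3 libraries a group, scatter in single genes was wide, and sex and feeding were unstated. Under TMM, the 95% interval excluded a rise of 2-fold or more for 13 of the 34 genes. A fall of that size was excluded for 14. For the others such changes were not excluded. The SE was largest for gck (2.13) and tpi1a (1.88), and intervals and floors cover counting error or library scatter only.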
